A study of Ascaris suum with 28 samples.

Results

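Among the 15399 genes measured in the parasitic roundworm Ascaris suum, 32 had poly(A) RNA at a moderate and nearly constant level in all 13 poly(A) libraries, from the oocyte to the L2 larva. They were chosen by 2 conditions on RPKM, which divides a gene's reads by its length and by the size of the library. Every one of the 13 values had to lie from 10 to under 150, and the highest could be at most 2 times the lowest. The level condition alone was met by 1383 genes, so the steady RNAs were 2.31% of them and the other 1351 are the genes they are set against below. The poly(A) values chose the members and are therefore described without a test, while the polysome gradient values took no part in the choice and are tested. The files do not pair gene identifiers with gene names, so members are given by identifier and no function is assigned.

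The poly(A) libraries came from oocytes, zygotes of uterus regions 1 to 4, embryos of 24 h (1 cell), 46 h (1-2 cells), 64 h (2-4 cells), 96 h (10-26 cells), 116 h (32-64 cells) and day 7 (about 256 cells), and L1 and L2 larvae. Polysome gradients were taken from day 0 zygotes of region 4 and from embryos of day 1 (1 cell), day 3 (4-8 cells), day 5 (32-64 cells) and day 7 (about 256 cells), each with a heavy, a middle and a free fraction. All worms were from a North American wild population, embryos of many females were pooled, and no treatment was given. Each stage, and each fraction of each day, had 1 library. By inference, the oocyte column was taken to hold poly(A) RNA of oocytes with wall and the 64 h column poly(A) RNA, since their names also fit other libraries of the series. In whole embryos, fewer cells of a type and less RNA per cell cannot be told apart.

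A flat RNA level over development can come from a transcript that is long-lived or from synthesis and decay that balance each other, and a level alone does not tell these apart. RPKM is a share of a library's reads, so a flat value means a constant share of reads and not a constant number of copies per embryo. The RPKM totals of the poly(A) columns themselves ranged 1.45-fold. In a polysome gradient, RNA that carries many ribosomes sediments furthest and enters the heavy fraction, RNA with fewer lies in the middle, and RNA without ribosomes stays in the free fraction. The position of an RNA in the gradient can thus change while its level does not. How much RNA each fraction held is not given, so differences of RPKM between fractions compare shares of libraries. They do not give how the molecules of an RNA are spread over the gradient, nor its ribosome load.

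The median poly(A) level of the steady RNAs lay between RPKM 20.45 in L1 and 26.05 at 24 h, a range of 1.27-fold over the 13 libraries. The median of the other 1351 genes ranged 2.02-fold, from 41 at 46 h down to 20.3 in L2. Most steady RNAs were near the lower end of the allowed levels. The median over libraries was under RPKM 20 for 13 of them, from 20 to under 50 for 16 and at 50 or more for 3, and the middle of these medians was 23.1. The lowest were ASU_04893, at 13.1, and ASU_05597, at 14.3, and the highest were ASU_00654, at 96, and ASU_06293, at 102.

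**Figure D1:**
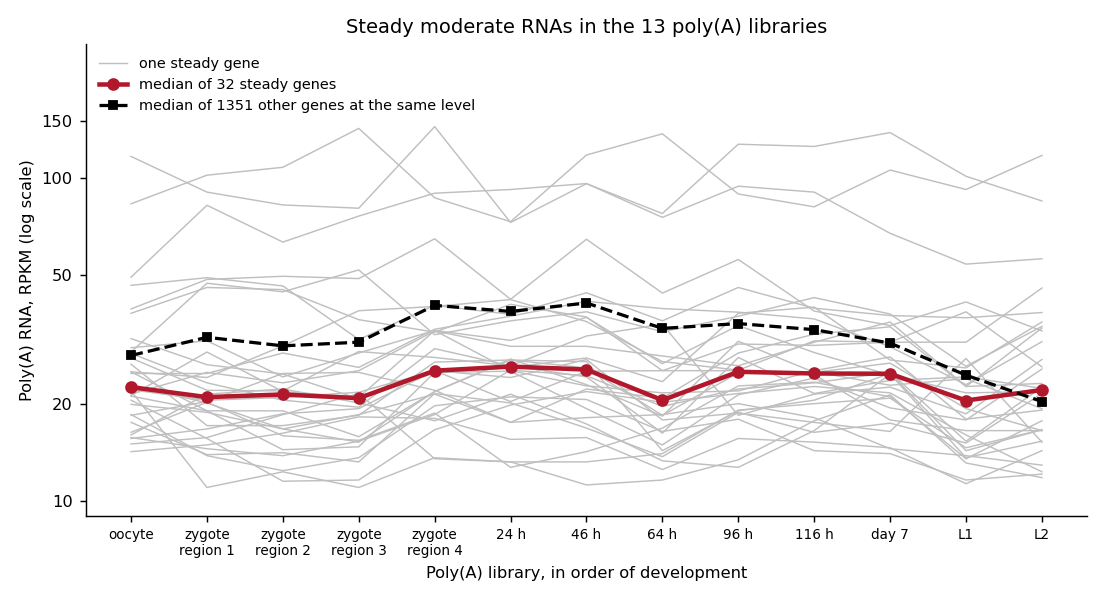
Poly(A) RNA of the 32 steady genes (grey lines, RPKM, log axis) in the 13 libraries in order of development, with their median (red) and that of the 1351 other genes at the same level (black, dashed). The red line stays between 20.45 and 26.05, and the dashed line drops from 30.8 on day 7 to 20.3 in L2.

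No single stage held the highest or the lowest values. With a tie counted for the earlier library, zygote region 4 was highest for 6 members, region 3 and 24 h for 4 each, and every other library except region 2 for 1 to 3. L1 was lowest for 6, region 3 and 24 h for 5 each, and region 4, 46 h, 116 h and day 7 for none. A larval library was lowest for 28.1% of the steady RNAs, against 46.9% of the other genes. The rule itself limits how low any 1 library can be, so the choice of members bears on this difference.

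The steadiest member was ASU_00940, with 22.1 in oocytes, 20.5, 20.9, 21.7 and 25.3 in zygote regions 1 to 4, then 20.3, 25.2, 25.3, 25.3, 24.6 and 17.8 from 24 h to day 7, and 16.5 in both larval stages. Its highest value was thus 1.53 times its lowest, and it was lowest in the larvae. ASU_08177 was next, with a ratio of 1.55 between 49.1 in region 1 and 31.6 in region 3. No gene at this level had a ratio of 1.5 or less, and 317 had one of 3 or less, so the 32 are the near end of a continuous distribution with a median ratio of 4.04. Just inside the bound lay ASU_00407, with a ratio of 1.99 between 51.9 in region 3 and 26.1 in L1, and ASU_04893, with 1.99 between 21.9 in oocytes and 11 in region 1. Just outside lay ASU_00756, at 2.01 between 32.5 at 96 h and 16.2 at 64 h, and ASU_08787, at 2.01 between 29.5 at 46 h and 14.7 in region 1.

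Membership rested on the scaling of the libraries and on the ends of the series. After quantile normalization of the poly(A) libraries 48 genes met the rule, of which 15 were among the 32, and after median-ratio scaling 65 did, of which 17 were. Without the oocyte library 63 genes met it, and without the L2 library 66. Leaving out any other single library gave between 34 and 46 genes.

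In the gradients as deposited most steady RNAs were highest in the middle fraction on each day, as were most genes tested. Over days 0, 1, 3, 5 and 7 the middle value exceeded the heavy and free values for 30, 26, 29, 21 and 29 of the 32 members, and for 20 members it did so on all 5 days. The heavy value was the highest for 0, 3, 1, 8 and 2 members, and for none on all days, while the free value was the highest for 2, 3, 2, 2 and 1, and for 1 member on all days. Among the other genes at this level 47.5% were highest in the middle fraction on all 5 days, and among all 13771 genes tested 34.9% were. By day the middle value was the highest for 85.5%, 74%, 75.6%, 62.6% and 85.4% of the other genes. For all genes tested these shares were 74.9%, 63%, 65.4%, 57.3% and 74.7%. Of the other genes 1.26%, 13%, 15.2%, 30.9% and 10.5% were highest in the heavy fraction by day. In the free fraction 13.2%, 12.8%, 9.1%, 6.37% and 3.92% were. The member highest in the free fraction throughout was ASU_08028. This order was lost after rescaling of the columns. Both rescalings remove a difference between columns that most genes share, so the loss does not test the shared order. The middle value was the highest on all 5 days for 2 members after quantile normalization and 0 after median-ratio scaling, against 6.44% and 3.11% of the other genes. By day it was the highest for 8, 13, 12, 13 and 19 members under the first and for 5, 9, 5, 6 and 13 under the second. Shares of the other genes by day after rescaling are not given here.

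The median RPKM of the steady RNAs on days 0, 1, 3, 5 and 7 was 14.65, 12.4, 15.15, 35.95 and 25.6 in the heavy fraction. It was 44.4, 35.8, 31.3, 65.05 and 57.6 in the middle fraction and 24.85, 13.05, 11.65, 14 and 13 in the free fraction. The heavy and middle medians were thus highest on day 5, and the free median on day 0. The other genes at this level had the same highest days, with medians of 54.6 and 73.5 on day 5 in the heavy and middle fractions and 26.8 on day 0 in the free fraction. Totals of the fraction columns also varied, from 236086 to 918364 RPKM, with day 5 highest in each fraction, and their part in these values was not tested.

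**Figure D2:**
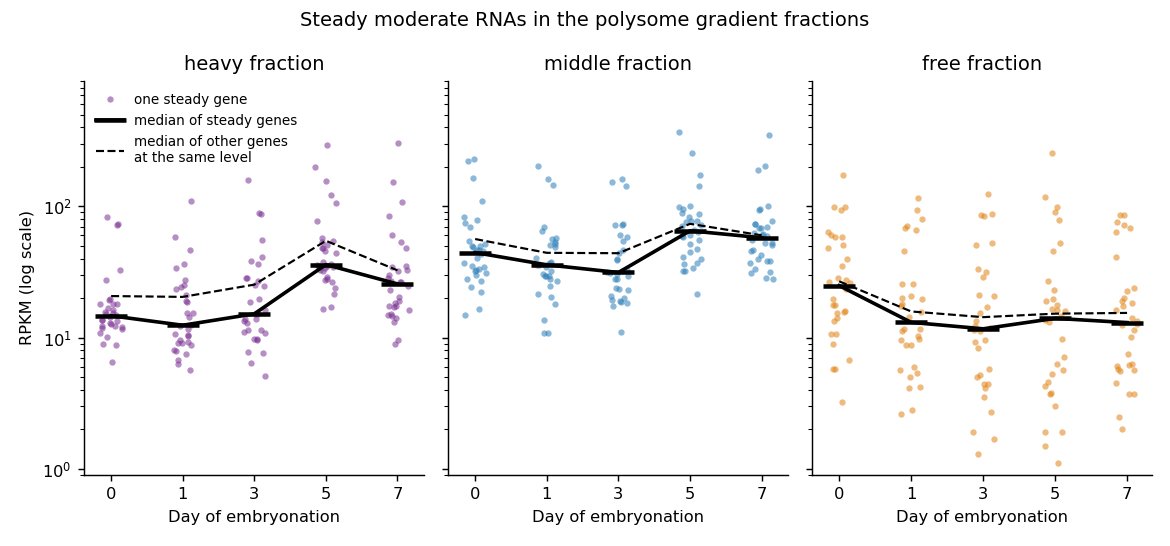
RPKM (log axis) of each of the 32 steady genes in the heavy, middle and free gradient fractions on days 0, 1, 3, 5 and 7 (points, with slight sideways scatter), their median (solid line) and the median of the 1351 other genes at the same level (dashed). Heavy values are highest on day 5, with a median of 35.95, and the free values spread widest, from 1.1 to 254.6 on that day.

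Heavy and free fractions were compared over the 5 days with limma on log2(RPKM + 1), with day as a term, so the replicate spread is between days and not between repeat gradients. Of the 32 steady RNAs, 12 were higher in the heavy fraction and 2 lower at an adjusted p under 0.05, against 29.8% higher and 19.6% lower among all 13771 genes tested. In the other 1351 genes 48.9% were higher and 12.5% lower. The median difference was 0.48 log2 units in the steady RNAs, 0.77 in the other genes and 0.12 in all genes tested. The 37.5% of steady RNAs called higher thus lay between the share of all genes and that of the other genes at this level.

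Under the deposited scaling most of these RNAs had a higher RPKM, that is a larger share of the library, in the middle than in the free fraction. Of the 32, 28 were higher in the middle than in the free fraction and 1 was lower, against 54% and 2.4% of all genes tested and 75.6% and 1.33% of the other genes at this level. In heavy against middle 22 were lower and 0 higher, against 50.1% lower and 0.312% higher of all genes tested. At an unadjusted p under 0.05 the count in that comparison was 23, against 59.3% of all genes tested and 61.2% of the other genes. All 23 were in the lower direction, since no member had an estimate above 0. Estimates above 0 were also few elsewhere, at 5.76% of all genes tested and 7.62% of the other genes. Calls fell to 14 members without day 1, against 30% of all genes lower, and to 2 without the day term, against 1.76%. The median heavy minus middle difference of the steady RNAs was -1.04 log2 units, against -0.88 in the other genes and -0.83 in all genes tested.

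**Figure D3:**
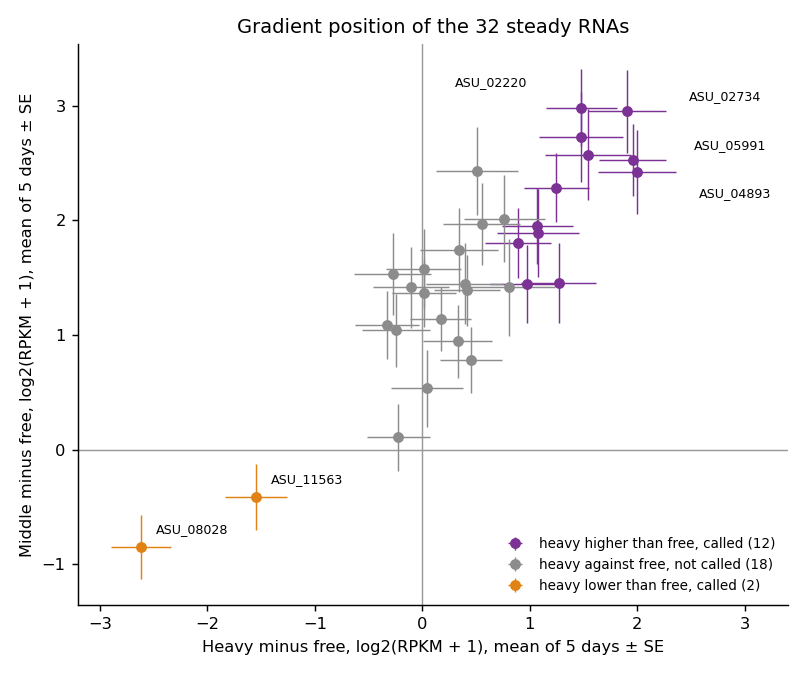
Gradient position of each of the 32 steady genes, as the heavy minus free difference (x axis) and the middle minus free difference (y axis) in log2(RPKM + 1), each the mean of 5 days with its SE from limma. Points run from the lower left to the upper right, from ASU_08028 at -2.61 and -0.85 to ASU_04893 at 2.00 and 2.42, with 12 called higher in the heavy fraction, 18 not called and 2 called lower.

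These splits moved with the scaling of the fractions. Both other scalings remove a difference that most genes share, so they give only a position relative to other genes. For heavy against free, quantile normalization gave 8 steady RNAs higher and 5 lower, against 27.1% and 27.5% of all genes, and median-ratio scaling gave 7 higher and 10 lower, against 22.3% and 39.2%. The corresponding counts for middle against free were 11 higher and 4 lower, then 8 and 9, against 22.9% and 21.4%, then 20.1% and 33.2%, of all genes. For heavy against middle the count of members lower was 3 after quantile normalization and 1 after median-ratio scaling, against 2.36% and 1.4% of all genes, with 0 higher in both, against 2.94% and 2.71%. The median of all genes for heavy minus free was 0.12 as deposited, -0.06 after quantile normalization and -0.37 after median-ratio scaling. For middle minus free these medians were 0.92, -0.02 and -0.28, and for heavy minus middle -0.83, -0.03 and -0.11. Relative to these medians the steady RNAs lay at 0.36, 0.11 and 0.13 for heavy minus free, and at 0.57, 0.27 and 0.03 for middle minus free, and for heavy minus middle at -0.21, -0.07 and 0.06.

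Calls of 9 members for heavy against free were shared by all 3 scalings, 7 of them higher and 2 lower. The 7 were ASU_00958, ASU_02220, ASU_02734, ASU_03262, ASU_04893, ASU_05991 and ASU_12292, a list formed after the values were seen. They were also higher in the middle than in the free fraction under all 3 scalings, together with ASU_04448. The share of all genes with a call under all 3 scalings is not given here, so these counts are not read as particular to the members.

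ASU_04893 had the largest heavy minus free difference of the calls with the same sign on every day. It was at RPKM 11.6, 8.1, 7.6, 32 and 15.2 in the heavy fraction on days 0, 1, 3, 5 and 7, against 5.8, 2.8, 1.3, 1.5 and 2.5 in the free fraction. The groups did not overlap, and the difference was 2.00 ± 0.36 log2 units (SE, limma adjusted p = 0.000217). It held under every alternative run, where the difference ranged from 1.26 to 2.27 and the adjusted p from 0.000132 to 0.0067.

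ASU_05991 was similar, at 17.9, 18.6, 10.9, 28.7 and 13.2 in the heavy fraction, against 6.8, 4.2, 2.7, 3.7 and 2 in the free fraction. Its lowest heavy value, on day 3, was above its highest free value, on day 0. The difference was 1.96 ± 0.31 (SE, limma adjusted p = 6.8e-05), and it ranged from 1.33 to 2.13 over the alternatives, with adjusted p from 4.75e-05 to 0.00236.

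Both members called lower in the heavy fraction had their highest values in the free fraction on most days. ASU_08028 was at 10.1, 6.3, 15.1, 36.5 and 24.8 in the heavy fraction and at 34.2, 21.3, 72, 142.8 and 68.6 in the middle fraction, against 57.9, 66.1, 123.8, 254.6 and 85.3 in the free fraction. The fractions kept the order free, middle, heavy on all 5 days. Its heavy minus free difference was -2.61 ± 0.28 log2 units (SE, limma adjusted p = 4.47e-06). It kept its call under every alternative, from -3.39 to -2.33, with adjusted p from 1.7e-06 to 0.00407. The middle minus free difference, -0.85 ± 0.28 (limma adjusted p = 0.0145), lost its call without day 1, without day 3 and without the day term, where it was -0.66, -0.87 and -0.85. After quantile normalization and median-ratio scaling it was -1.48 and -2.62, and over the alternatives its adjusted p ranged from 1.73e-05 to 0.286.

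ASU_11563 was at 17.9, 23.5, 38.6, 54.8 and 35 in the heavy fraction, against 98.1, 115.4, 86.8, 99.1 and 75.6 in the free fraction. The groups did not overlap, and the difference was -1.54 ± 0.29 (SE, limma adjusted p = 0.000264), with a range of -2.31 to -1.33 and adjusted p of 2.05e-06 to 0.00457 over the alternatives. The poly(A) medians of ASU_08028 and ASU_11563 were 26.4 and 26.2, near the middle of the members.

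For middle against free the largest differences among members were in ASU_02220 and ASU_02734. ASU_02220 was at 14.8, 29.6, 18.4, 40.9 and 42.8 in the middle fraction, against 3.2, 2.6, 1.7, 1.9 and 3.7 in the free fraction, a difference of 2.98 ± 0.33 (SE, limma adjusted p = 1.6e-06). ASU_02734 was at 54.6, 40.6, 20.9, 47.1 and 52.4, against 15.3, 4.1, 1.9, 1.9 and 5.7, a difference of 2.95 ± 0.36 (SE, limma adjusted p = 2.64e-06). Middle and free values did not overlap in either gene. Both calls held under every alternative, with differences no smaller than 1.42 and 1.34 and adjusted p no higher than 0.000857 and 0.000539. Their poly(A) medians were 17.3 and 25.3.

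For heavy against middle the largest falls with the same sign on all days were in ASU_04448 and ASU_02361. ASU_04448 was at 13.3, 8.8, 7.7, 23.7 and 17 in the heavy fraction, against 49.5, 50.6, 31.1, 77.1 and 63.1 in the middle fraction, a difference of -1.92 ± 0.38 (SE, limma adjusted p = 0.00145). This call held under all alternatives, with a highest adjusted p of 0.049. ASU_02361 was at 12.2, 7.5, 11.5, 35.1 and 28.4, against 45.8, 34.6, 44.2, 100.3 and 100.3, a difference of -1.80 ± 0.36 (SE, limma adjusted p = 0.00135). It lost its call after median-ratio scaling and without the day term, with adjusted p up to 0.0648. In both genes every heavy value lay below every middle value except that the day 5 heavy value of ASU_02361, at 35.1, was above its day 1 middle value of 34.6.

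The next question was whether the fractions were as steady as the poly(A) values. As deposited they were not. Over the 5 days the highest value was at most 2 times the lowest for 0 of 32 members in the heavy fraction, 10 in the middle, 8 in the free and 12 in the mean of the 3 fractions. Among all genes at RPKM 10 to under 150 in the same 5 columns the shares were 8.42%, 18.4%, 20.5% and 21.1%. Not all members were at that level in those columns. Of those that were, 0 of 17, 8 of 29, 6 of 15 and 11 of 26 met the bound. Of the other 1351 genes 6.88%, 21.8%, 12.3% and 20.4% met the bound. Over all 15 fraction columns no member met it, and the ratio of highest to lowest ran from 3.20 to 40.4 with a median of 8.85, against 13.3 in the other genes.

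The same 4 stages can be set side by side, region 4 or day 0, 24 h or day 1, 116 h or day 5, and day 7. Over these the median ratio of the steady RNAs as deposited was 3.22 in the heavy fraction, 1.84 in the middle, 2.32 in the free and 1.81 in the mean of the fractions, against 1.37 in poly(A) RNA. The poly(A) ratio is low by the choice of members, so this gap is a description. In the other genes, which the rule kept apart for being less steady, the mean of the fractions had a median ratio of 2.38 and poly(A) RNA 2.05. After quantile normalization the steady RNAs' median ratios over these stages were 1.72 in the heavy fraction, 1.76 in the middle, 1.73 in the free and 1.51 in the mean, against 1.46 in poly(A) RNA. After median-ratio scaling they were 1.68, 1.67, 1.95 and 1.55, against 1.38. After quantile normalization 28 members were within the bound in the mean of the fractions and 26 in poly(A) RNA. After median-ratio scaling they numbered 30 and 28. Among all genes that met the level condition in the same columns, the shares were 42.9% and 43.1% after quantile normalization. They were 40.4% and 47.9% after median-ratio scaling. Not all members met the level condition in those columns, and the poly(A) counts remain tied to the choice of members. In the other genes the mean of the fractions had ratios of 2.09 and 2.21 under these scalings, against 2.13 and 2.00 in poly(A) RNA, so which of them was the steadier turned under quantile normalization.

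Day 5 was the highest day for most members in the heavy and middle fractions. Column totals were also highest on day 5 in each fraction. In the heavy fraction the total was 631311 RPKM, against 236086 on day 0, and its part in these counts was not tested. Heavy values were highest on day 5 for 31 of 32 members and on day 7 for the other, against 78.2% on day 5 in the other genes. Without day 5, 13 members met the bound of 2 in the heavy fraction and 20 in the mean of the fractions. The free fraction was highest on day 0 for 21 members, against 58.3% of the other genes, and without day 0 the number within the bound there was 20. In the middle fraction day 5 was highest for 19 members, against 48% of the other genes. Days 1 and 3 were lowest there for 15 and 13, against 34.1% and 31.4%. Without day 3 the number within the bound in the middle fraction was 17, against 31.8% of the other genes. Shares of the other genes without day 5 and without day 0 are not given here, so those counts are not read as particular to the members.

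After either rescaling, most steady RNAs were within the bound in the heavy and middle fractions and in the mean of the fractions. For the free fraction this depended on the scaling. Rescaling also removes changes between days that most genes share, and which scaling is nearer to the RNA amounts was not tested. After quantile normalization 22 members were within the bound over 5 days in the heavy fraction, 19 in the middle, 20 in the free and 26 in the mean of the fractions. The shares of all genes at RPKM 10 to under 150 in those columns were 26.2%, 29%, 38.5% and 36.5%. After median-ratio scaling the members numbered 18, 22, 12 and 26, against 26.6%, 32.1%, 20.8% and 33.6%. Counting only members at that level in those columns, 18 of 27, 17 of 25, 19 of 25 and 22 of 26 were within the bound after quantile normalization. After median-ratio scaling 15 of 25, 22 of 28, 8 of 16 and 19 of 22 were. In the mean of the fractions 81.2% of the steady RNAs were within the bound under both scalings, against 38% and 31.2% of the other genes. Over all 15 fraction columns 3 members were within it after quantile normalization and 1 after median-ratio scaling, against 0.962% and 0.37% of the other genes.

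**Figure D4:**
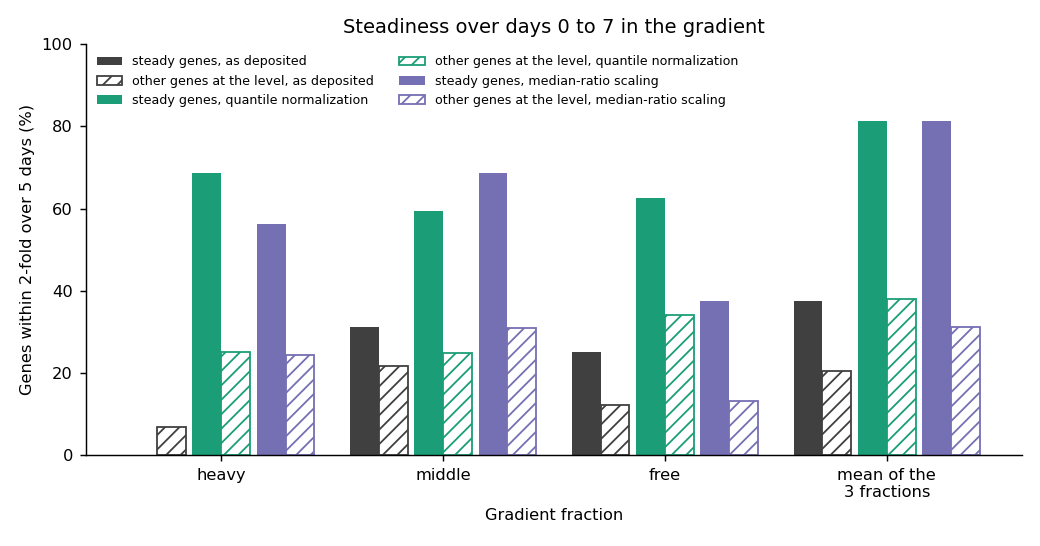
Share of genes (%) whose highest RPKM over days 0 to 7 was at most 2 times the lowest, in each gradient fraction and in the mean of the 3 fractions, for the 32 steady genes (filled bars) and the 1351 other genes at the same level (hatched) under 3 scalings. In the mean of the fractions the filled bars stand at 37.5% as deposited and at 81.2% under both other scalings, above the hatched bars at 20.4%, 38% and 31.2%.

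Genes with a lower poly(A) ratio were more often steady in the gradient across the whole level class. After median-ratio scaling the mean of the fractions was within the bound for 81.2% of the 32 members, 50.5% of the 285 genes with a poly(A) ratio over 2 to 3, 32.7% of the 617 with a ratio over 3 to 5 and 16.9% of the 449 above 5. As deposited the shares were 37.5%, 23.5%, 22.9% and 15.1%. Across the 1383 genes, which share these libraries, Spearman's rho between the poly(A) and the gradient ratio was 0.39 after median-ratio scaling and 0.21 as deposited. With members chosen after the same scaling of the poly(A) libraries, 51 of 65 genes were within the bound in the gradient for median-ratio scaling and 39 of 48 for quantile normalization, against 32.4% and 38.4% of the other genes at the level.

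ASU_08177 had the lowest ratio over the 15 fraction columns, 3.20. It was at 32.9, 36.1, 89.4, 105.3 and 84.6 in the heavy fraction, 78.7, 57.5, 72, 99.1 and 95 in the middle and 60.2, 71.2, 85.7, 90.1 and 63.6 in the free fraction. Its fractions overlapped, the heavy minus free difference was -0.22 ± 0.29 (SE, limma adjusted p = 0.548), and it was also the second steadiest in poly(A) RNA. ASU_13364 followed with a ratio of 3.97. ASU_08028 had the highest ratio, 40.4, between 254.6 in the day 5 free fraction and 6.3 in the day 1 heavy fraction, and ASU_00958 was next with 33.1, between 36.4 in the day 5 middle and 1.1 in the day 5 free fraction. Of the 32 members, 13 met the bound in at least 1 fraction as deposited, 5 of them in both middle and free fractions, and none in all 3.

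Linear slopes over day number gave few calls among the members. With limma 0 of 32 had a slope in the free fraction, 0 in the middle and 1 in the heavy fraction at an adjusted p under 0.05, against 21.1%, 28.8% and 18.1% of all genes tested. By direction, 5.48% of all genes were called upward and 15.7% downward in the free fraction, 16.2% and 12.6% in the middle, and 13% and 5.04% in the heavy fraction. At an unadjusted p under 0.05 the counts were 4, 4 and 13, against 34.2%, 41.3% and 34.9% of all genes, so the heavy count, 40.6% of the members, was near the share of all genes. In the other genes at this level 13.2%, 8.73% and 11.4% were called. The members were chosen for flat poly(A) levels over development, so their choice bears on these differences. The single call was ASU_06293, at 82.2, 110, 159.3, 292.4 and 305.2 in the heavy fraction on days 0 to 7. These values were higher on each later day, the slope was 0.28 ± 0.08 log2 units per day (SE, limma adjusted p = 0.0248), and its adjusted p ranged from 0.0158 to 0.275 over the alternatives. After quantile normalization and median-ratio scaling the slope was 0.11 and 0.13 and the call was lost. It was also lost without day 0, 1, 3 or 5, where the slope was 0.26, 0.29, 0.28 and 0.26. Without day 7 there were 8 calls in the heavy fraction, 2 in the middle and 3 in the free, against 25.6%, 30.9% and 20.5% of all genes.

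The heavy minus free difference shifted towards the heavy fraction with age as deposited. Over days 0, 1, 3, 5 and 7 the members' medians were -0.43, 0.08, 0.66, 1.65 and 1.08, and it was above 0 for 8, 18, 24, 30 and 30 of them. The other genes moved alike, with medians of -0.27, 0.39, 0.96, 1.81 and 1.10. A change per day was called for 9 members, all towards the heavy fraction, against 14.2% of all genes tested in that direction and 0.363% in the other, and 24.9% of the other genes at this level. All 32 estimates were above 0, as were 91.5% of those of the other genes and 84.8% of those of all genes, with a median of 0.26 log2 units per day, against 0.21 in the other genes and 0.17 in all genes tested.

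No such change was called after rescaling. Rescaling removes a change with day that most genes share, so these fits do not test the shared shift. After quantile normalization the medians of members on the 5 days were 0.01, -0.02, 0.25, 0.27 and 0.11, and after median-ratio scaling -0.35, -0.17, 0.09, -0.11 and -0.03. Limma called 0 members for a change per day under either, with 1 and 3 at an unadjusted p under 0.05, against 18.7% and 20.2% of all genes. Adjusted calls covered at most 0.022% of all genes towards the heavy and 0.102% towards the free fraction. The median change per day of all genes was 0.00 and 0.02. As deposited the count of members was 1 without day 0, 0 without day 1, 3 without day 3, 4 without day 5 and 22 without day 7. The share of all genes called in these fits was 3.94%, 0%, 5.47%, 8.81% and 29.2%. Without the day term it was 0 members and 0% of all genes.

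**Figure D5:**
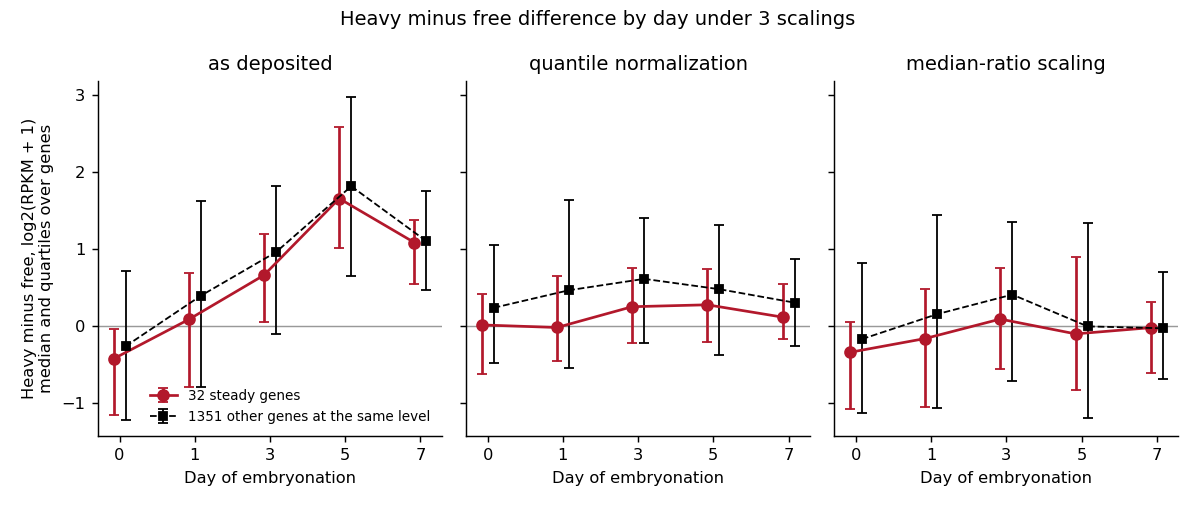
Heavy minus free difference in log2(RPKM + 1) by day (median with quartiles over genes) for the 32 steady genes (red) and the 1351 other genes at the same level (black), under the deposited values and 2 other scalings. As deposited the red median is -0.43 on day 0 and 1.65 on day 5, while after median-ratio scaling it stays between -0.35 and 0.09.

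The largest changes per day were in ASU_09149 and ASU_00654. ASU_09149 was at 19.7, 27.2, 36.5, 122.7 and 53.6 in the heavy fraction, against 58.1, 25.4, 20.6, 17.6 and 13.4 in the free fraction. Free values were lower on each later day and the heavy value passed them from day 1, a change of 0.51 ± 0.10 log2 units per day (SE, limma adjusted p = 0.0123). ASU_00654 was at 72.7, 33.6, 55.4, 156.9 and 152, against 172.3, 92.9, 52.4, 78.5 and 71.8, a change of 0.39 ± 0.09 (SE, limma adjusted p = 0.015). Both calls were lost after quantile normalization and median-ratio scaling, without the day term and without day 1, and that of ASU_09149 also without day 0. Over the alternatives the estimates ranged from 0.25 to 0.77 with adjusted p of 0.00384 to 0.242, and from 0.15 to 0.50 with adjusted p of 0.0102 to 0.335.

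The submitters treated gradient and transcriptome data as replicates of each other, and both can be set side by side at 4 stages. The mean of the 3 fractions weights them equally, so it is not the gradient's total RNA and does not decide whether the data replicate each other. By the median over members it was close to the poly(A) level before cleavage and above it later. Single members had ratios from 0.42 to 2.30 on day 0 and from 0.45 to 2.65 on day 1. On day 5 the ratios ran from 0.88 to 3.77 and on day 7 from 0.61 to 2.78. On day 0 the median gradient mean of the steady RNAs was 29.2, against 25.3 in poly(A) RNA of region 4, with a median ratio of 1.10 and 19 of 32 members above 1. On day 1 it was 20.3, against 26.05 at 24 h, with a ratio of 0.85 and 9 members above 1. On day 5 it was 39.5, against 24.8 at 116 h, with a ratio of 1.55 and 31 above 1, and on day 7 31, against 24.75, with a ratio of 1.42 and 21 above 1. The other genes had median ratios of 0.89, 0.76, 1.54 and 1.25 at these stages, and 40.6%, 26.6%, 84.9% and 66.6% of them were above 1. Column totals stood in ratios of 1.09, 1.03, 2.19 and 1.62, so the days with the higher ratios were those with the higher totals, and their part in the result was not tested. These ratios come from 1 library of each kind and carry no test.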

How the data were processed

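The authors deposited RPKM, a length- and library-scaled read measure, for 15399 genes in 28 columns with 1 decimal. Of the 28 samples 18 had a column, 13 poly(A) libraries and 5 polysome samples with 3 fractions each, and the other 10 were not analysed here. Bowtie 0.12.7 is named in the submitters' processing notes; not given in the sources used here: build, annotation and counter. Sequencing strategies varied between libraries, per the series text, and depth is unknown, so no counting interval is given.

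Models were fitted to log2(RPKM + 1) by limma 3.58.1 (R 4.3.3), with the variance trended on mean level, over genes at RPKM 1 in at least 2 of 15 fraction columns, with Benjamini-Hochberg adjustment over 13771 genes and a threshold of 0.05. All 32 members passed the filter. Fold changes on this scale understate those of low values. Fraction contrasts had day as a term (8 residual degrees of freedom). Slopes per day had 9, and the change of heavy minus free per day 6. Days stood in as replicates, so p-values measure the spread between these libraries. The scripts were tested on simulated data. Alternatives were other pseudocounts, filters and scalings, no trend, no day term and leaving out each day.

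Identifiers named are those with the extreme poly(A) or fraction ratios, poly(A) medians, and at most 2 per direction of each contrast among calls, with the same sign on all 5 days for fraction contrasts. Members and rules were chosen with earlier results of these data known. Gene lists by product name were not used, since no table pairs identifiers with names.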

Additional observations from a re-analysis of the deposited data

Results flagged for a closer look

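The heavy minus free difference changed with day in 9 of the 32 steady RNAs by limma's test of fraction against day number at an adjusted p under 0.05. The largest changes were 0.51 log2 units per day in ASU_09149 and 0.39 in ASU_00654. Among all genes tested 14.6% were called for this change, and the column totals of the fractions differ between days. No member was called after quantile normalization or median-ratio scaling, which remove a change that most genes share.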

How the results depend on the processing

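Calls shared by the deposited values and both other scalings were 7 members higher and 2 lower for heavy against free, 8 and 1 for middle against free, and 0 and 1 for heavy against middle, while all 3 splits moved with the scaling. No share of all genes is given for these shared calls. Members highest in the middle fraction on all 5 days numbered 2 after quantile normalization and 0 after median-ratio scaling, a comparison added after the data were seen. Counts that moved by more than 1.5 times were as follows. After quantile normalization 5 members were lower in heavy than in free, 11 higher and 4 lower in middle than in free, 3 lower in heavy than in middle, 1 had a slope in the middle fraction and 0 in the heavy, and 0 changed per day. After median-ratio scaling the counts were 7 higher and 10 lower for heavy against free, 8 higher and 9 lower for middle against free, 1 lower for heavy against middle, 0 slopes in the heavy fraction and 0 changes per day. Members within the bound numbered 22, 19, 20 and 26 (heavy, middle, free, mean) after quantile normalization and 18, 22 and 26 (heavy, middle, mean) after median-ratio scaling, where the members themselves would number 65. With a bound of 1.5 there were 2 in the middle, 2 in the free and 1 in the mean, with a bound of 3 there were 8, 28, 18 and 28 (heavy, middle, free, mean). At these bounds the rule itself gave 0 and 317 genes. Of the 317, 155 (48.9%) were higher and 30 (9.46%) lower in heavy than in free, against 29.8% and 19.6% of all genes. Slope counts in the middle fraction were 1 with a pseudocount of 5, without a filter, with a filter of RPKM 10 and without the trend. Of all genes 34.2% were called with a pseudocount of 5, 26.4% without a filter and 32.3% with RPKM 10. The share without the trend is not given here. In the heavy fraction slope counts were 3 without a filter and 2 with RPKM 10, against 14.4% and 26.1% of all genes.

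No replicate block, that is the fit without the day term, gave 0 members lower in middle than in free, 2 lower in heavy than in middle and 0 changes per day. Pairing here is by day, since the 3 fractions of a day come from 1 sample, and the labels carry no replicate numbers.

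Leaving out 1 day at a time gave 8 to 15 members higher and 2 to 2 lower in heavy than in free, 25 to 28 higher and 0 to 1 lower in middle than in free, and 0 to 0 higher and 14 to 24 lower in heavy than in middle, with 14 without day 1. Slopes ranged over 0 to 3 in the free, 0 to 2 in the middle and 0 to 8 in the heavy fraction, and changes per day over 0 to 22. Members within the bound ranged over 0 to 13 in the heavy, 10 to 17 in the middle, 9 to 20 in the free fraction and 13 to 20 in the mean. Shares of all genes are given above for heavy against middle without day 1, slopes without day 7 and changes per day. For the other fits no share of all genes is given here, so those counts are not read as particular to the members. Leaving out 1 poly(A) library gave 34 to 66 members; 10 of these 13 were added after the data were seen. Members at a bound of 1.5 could not be tested, since there were none. Of 155 alternatives for single genes 20 lost the call and none turned the direction; where the cause is not a smaller set of libraries it was not tested.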
